A study of Mus musculus with 10 samples.

Results

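The 8 genes described here are transcription factors of the dorsal midbrain: Pax3, Pax7, Msx1, Msx2, Meis1, Meis2, Zic1 and Zic2. They were taken as a list of symbols, chosen with earlier results of these data known. The symbols were matched to Entrez gene IDs, and all 8 were among the 30935 gene IDs of the count table. Gene counts came from RNA-seq of midbrains taken from mouse embryos at day 14.5 of development, with 5 libraries from wild-type embryos (Rbfox1 +/+; numbers 1, 2, 4, 5 and 6) and 5 from embryos homozygous for a deletion of HAR.321, an element of the Rbfox1 locus (Rbfox1 ΔHAR.321/ΔHAR.321; numbers 2, 3, 4, 5 and 6). HAR stands for human accelerated region. Each library is an independent biological sample by the series description, and no treatment is named for either group. The sources used here do not give strain, sex, litter or dissection day. The table counts genes, so the deletion itself was not checked here. The question for these genes was whether their levels differed in the midbrain without the element.

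As background, the dorsal part of the midbrain (the alar plate) becomes the tectum, and its fate is set by a small set of transcription factors that answer to signals from the roof plate, the strip of cells along the dorsal midline. Pax3 and Pax7 carry a paired domain and a homeodomain and mark the alar plate, where Pax7 stays on in the tectum as neurons form. Msx1 and Msx2 are homeodomain proteins induced by BMP signals at the dorsal midline, and Msx1 is also known in ventral progenitors of dopamine neurons. Meis1 and Meis2 are homeodomain proteins that bind DNA with PBX partners, and Meis2 is known for tectal fate. Zic1 and Zic2 are zinc finger proteins of the dorsal neural tube, cerebellum and meninges.

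The 8 genes form 4 pairs of close relatives, so the sequences were compared first to see whether reads of one could be counted for its partner. The longest run of coding bases that both partners hold without a difference is shown in capitals, with up to 20 coding bases on each side in lower case, from the GENCODE M21 transcripts.
Pax3: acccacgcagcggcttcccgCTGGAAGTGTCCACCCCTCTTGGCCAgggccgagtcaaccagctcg
Pax7: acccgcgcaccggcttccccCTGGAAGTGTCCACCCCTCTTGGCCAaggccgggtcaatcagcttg
Msx1: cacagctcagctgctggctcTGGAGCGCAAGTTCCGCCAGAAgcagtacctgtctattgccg
Msx2: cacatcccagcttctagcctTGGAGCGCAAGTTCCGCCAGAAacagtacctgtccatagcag
Meis1: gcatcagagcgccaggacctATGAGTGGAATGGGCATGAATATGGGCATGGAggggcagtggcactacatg
Meis2: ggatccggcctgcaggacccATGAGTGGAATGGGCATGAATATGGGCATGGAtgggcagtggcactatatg
Zic1: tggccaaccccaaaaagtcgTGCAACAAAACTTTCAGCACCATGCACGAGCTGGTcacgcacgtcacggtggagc
Zic2: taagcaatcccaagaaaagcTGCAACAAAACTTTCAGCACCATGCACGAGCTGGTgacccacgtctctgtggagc

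These runs were short. The run of Pax3 and Pax7 held 26 bases and lay at coding bases 79 to 104 of both, counted from the start codon, just before the paired domain. The run of Msx1 and Msx2 held 22 bases, at coding bases 560 to 581 of Msx1, within the homeobox. That of Meis1 and Meis2 held 32 bases near the end of the coding sequence (1120 to 1151 of 1170 in Meis1), and that of Zic1 and Zic2 held 35 bases in the zinc finger region (724 to 758 of 1341 in Zic1). No window of 50 bases of the longest coding transcript of Pax7, Msx1, Meis2, Zic1 or Zic2 occurred in a transcript of another gene on the same strand. Of the Pax3 windows 17 of 3814 did, shared with none of the other 7 factors, and of the Msx2 windows 14 of 2404 did, with a Meis2 transcript among those that share them. For Meis1 13.3% of the windows were shared. Of those 1001 windows, 981 were shared with the transcript Gm37818, not analysed here, and none with Meis2. By RefSeq gene spans, Zic1 overlaps Zic4, Meis2 overlaps the long noncoding RNA G630016G05Rik (113 to 202 counts per library) and Msx1 overlaps its antisense RNA Msx1os. Without a known strand setting, reads in such an overlap cannot be told apart.

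The libraries held 16246892 to 20255728 counts. Markers of the midbrain were present: the engrailed genes En1 and En2 stood at a mean of 72.4 and 151 CPM in the wild-type group (CPM, counts scaled to a common library size with TMM factors), and Otx2, of the fore- and midbrain, at 197 CPM. Of 8 hindbrain and cerebellar markers listed, 3 (Hoxb2, Hoxb3 and Hoxa3) had no count in any library. The others had low counts in some libraries, such as Atoh1 at 2.03 CPM in deletion 2 and Hoxa2 at 0.838 CPM in deletion 3. Genes with a longer transcript stood higher in most deletion libraries: the slope of log2 CPM on log2 transcript length was -0.035 ± 0.022 for wild-type and 0.035 ± 0.057 for deletion libraries (SD, n = 5 each; exact permutation test, two-sided, p = 0.0397). For that reason each fold change below was also computed with the trend on length removed.

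Among the 8 genes, levels per length differed widely. Meis2 was the most abundant, at 178 ± 16.1 TPM in the wild-type group (TPM, a length-scaled share of all transcripts, over the longest coding transcript; SD, n = 5), higher than 92.9% of the genes tested. Zic1 followed at 74.2 ± 9.05 TPM, Zic2 at 43.3 ± 4.15 TPM and Pax7 at 33.6 ± 3.36 TPM. Pax3 (18.4 ± 3.31 TPM) and Meis1 (16.6 ± 5.08 TPM) were next and did not differ beyond their spread. Msx1 stood at 5.33 ± 2.08 TPM. Msx2 was the lowest, at 0.276 TPM, where only single counts lay behind each value.

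The order in the middle depends on which transcripts are used. Coding transcripts of Pax7 run from 1725 to 5854 bases, so its wild-type level would be 114 TPM over the shortest, and the same step takes Zic1 to 148 TPM and Meis1 to 39.2 TPM. Isoforms were not counted. On the same per-length scale, genes of PBX proteins, the partners of MEIS, spanned a wide range: Pbx3 stood at 249 ± 10.1 TPM, Pbx2 at 81.7 ± 4.72 TPM and Pbx4 at 21.8 ± 2.26 TPM in the wild-type group. Meis3, the remaining member of the MEIS family, stood at 103 ± 9.89 TPM, above Meis1.

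**Figure D1:**
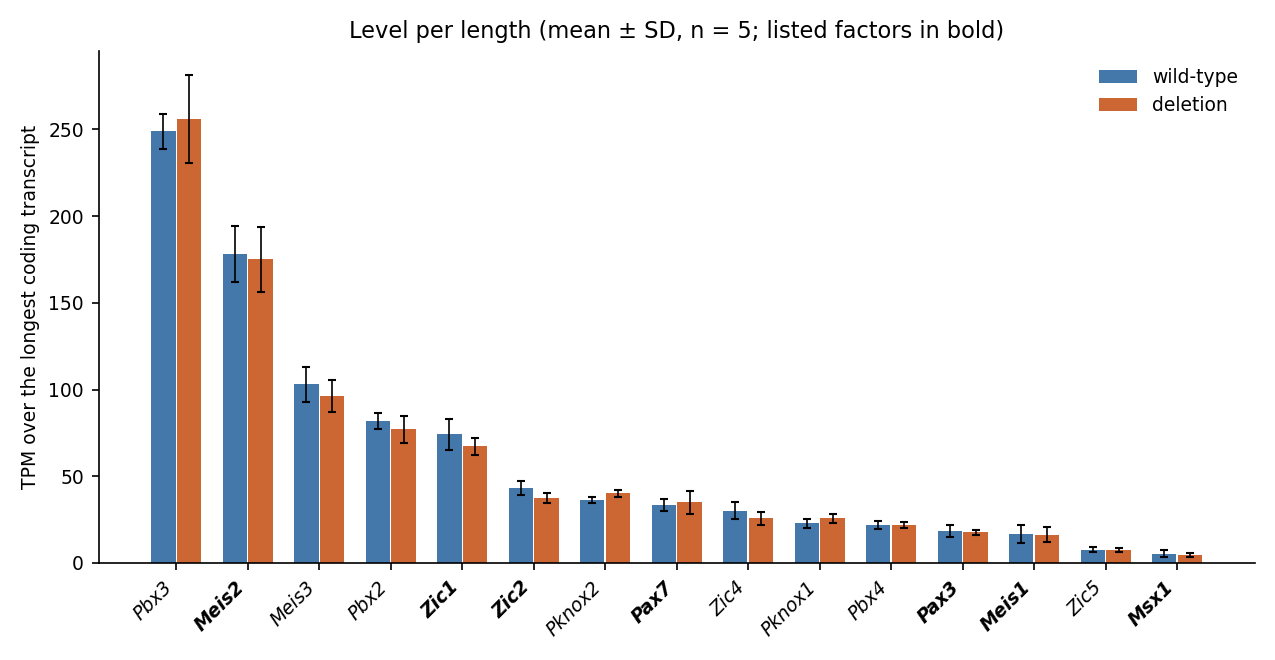
Level per length of the genes and their relatives, in TPM over the longest coding transcript (y axis), for the wild-type (blue) and deletion (orange) groups; bars are means and lines the SD over 5 libraries. Meis2 at 178 TPM is the highest of the listed factors and Msx1 at 5.33 TPM the lowest drawn; Msx2 and Msx3 are left out.

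In the comparison of deletion with wild-type, none of the 8 genes passed. Msx2 did not pass the filter on low counts, and of the other 7, 0 passed edgeR's quasi-likelihood test at a Benjamini-Hochberg adjusted p of 0.05 over all 15288 genes tested, where 0.0589% of genes passed. At an unadjusted p under 0.05 there were 2 of 7 (Zic1 and Zic2), against 10.5% of all genes tested. DESeq2 called 0 of the 6 with an adjusted p, against 3.23% of the 8080 genes with one. In limma-voom 0 of 7 were called, against 0.0589% of all genes tested. Of the 7, 6 had a log2 fold change under 0, with a median of -0.10, where 50.7% of all genes lay under 0 with a median of -0.00. For all 7 the groups overlapped, as they did for all but 2.49% of the genes tested. A share of calls near that of all genes is no result about these factors, and in bulk tissue fewer cells of a type and less RNA per cell cannot be told apart.

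**Figure D2:**
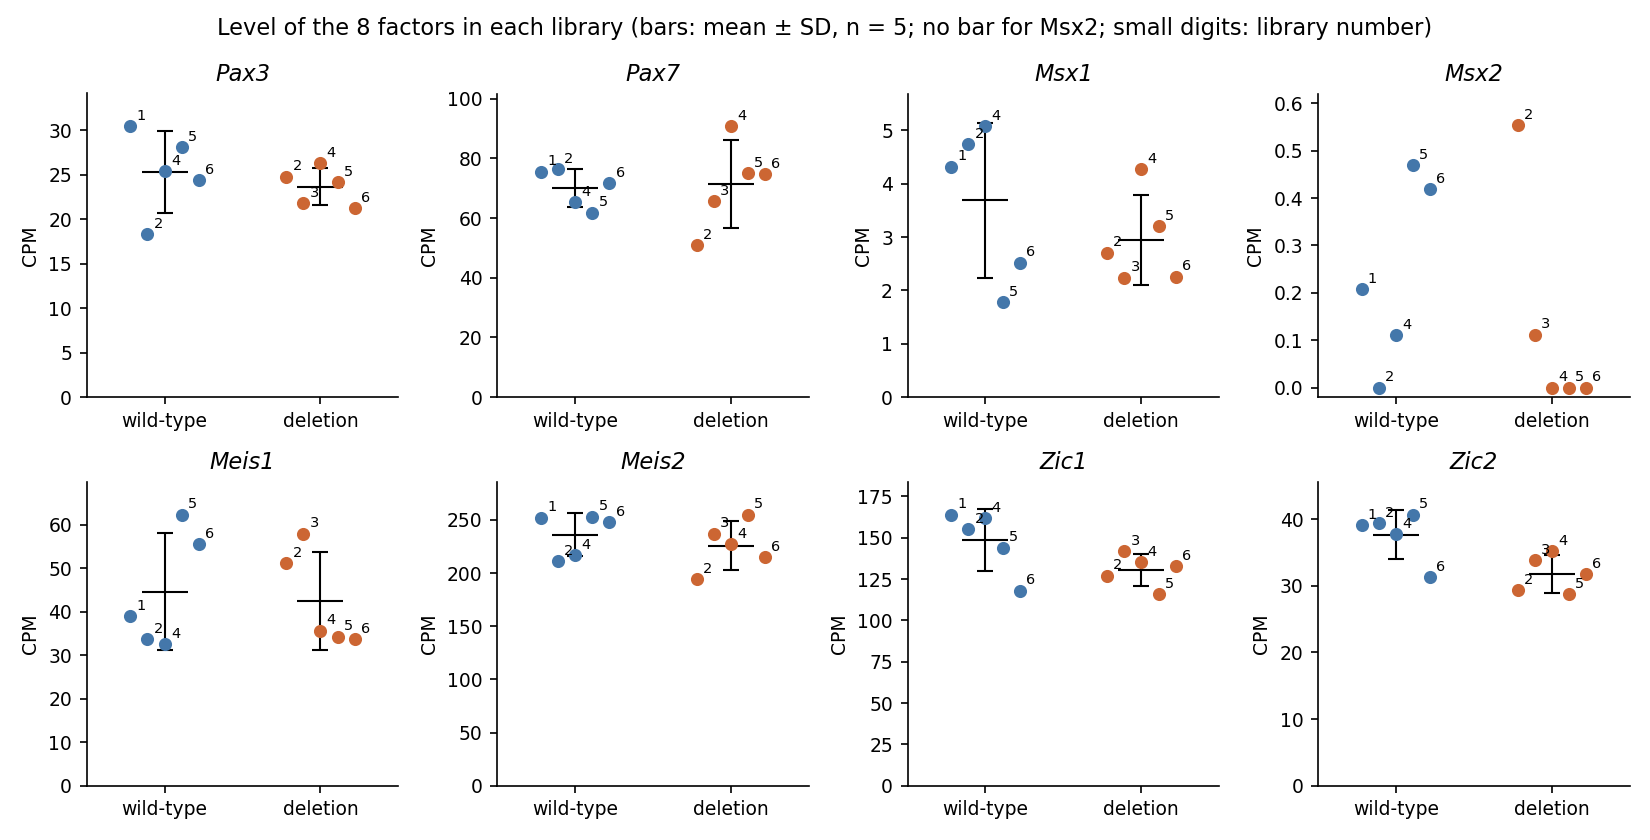
Level of each of the 8 genes in every library, in CPM (y axes, each on its own scale), for wild-type (blue) and deletion (orange); small digits are library numbers, and black marks show the mean and SD of 5 libraries (none for Msx2). For every gene the groups overlap, and Meis1 falls into a higher set (wild-type 5 and 6, deletion 2 and 3, from 51.2 to 62.4 CPM) and a lower set (from 32.5 to 39.1 CPM).

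Zic1 and Zic2 were the pair with the smallest p. Zic1 stood at 164, 155, 162, 144 and 118 CPM in wild-type 1, 2, 4, 5 and 6, and at 127, 142, 135, 116 and 133 CPM in deletion 2, 3, 4, 5 and 6. None of the 5 deletion libraries reached the wild-type mean of 149 CPM, and wild-type 6 lay among them. The share of all genes with no deletion library above the wild-type mean was not computed. The log2 fold change was -0.19 (SE 0.08, 95% interval -0.35 to -0.02), which did not pass in edgeR (adjusted p = 0.407). With the length trend removed it was -0.24 (SE 0.08, adjusted p = 0.535 in edgeR).

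Zic2 stood at 39.1, 39.4, 37.8, 40.7 and 31.3 CPM in the wild-type libraries and at 29.3, 33.9, 35.2, 28.8 and 31.7 CPM in the deletion libraries, in the same order of numbers. As for Zic1, wild-type 6 was the one wild-type library within the range of the deletion group. The log2 fold change was -0.24 (SE 0.09, 95% interval -0.43 to -0.06), again short of the threshold in edgeR (adjusted p = 0.293). It kept its sign in all 21 alternative fits, from -0.31 to -0.20, and that of Zic1 ran from -0.26 to -0.15. The smallest adjusted p among those fits was 0.0913 for Zic2, in edgeR without deletion 4, and 0.195 for Zic1, in edgeR without wild-type 6.

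Zic1 and Zic2 also varied together between libraries. Their log2 CPM correlated over the 10 libraries with Pearson r = 0.86 (permutation test, p = 0.00215, adjusted p = 0.0451 over 21 pairs) and Spearman rho = 0.87 (permutation test, p = 0.00228, adjusted p = 0.0479). With the group means removed r was 0.81, and without the 2 libraries farthest from the median of Zic1 (deletion 5 and wild-type 1) it was 0.80. The permutations left the group difference in, so the p-values include it, and the r of 0.81 was not tested. Other genes reached higher values with the group means removed, such as Gm20604 with Zic1 (0.92) and Zfp286 with Zic2 (0.93). How often any 2 genes reach such values was not counted. Each point is a library, so both values share its tissue piece and its depth. The ratio of the 2 levels per length stayed within 1.54 to 1.89 in all libraries. Their longest exact shared coding run, shown above, held 35 bases. No window of 50 bases of the longest coding transcript of either was shared with the other. The assignment of the reads themselves was not tested. None of the other 20 pairs passed after adjustment.

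**Figure D3:**
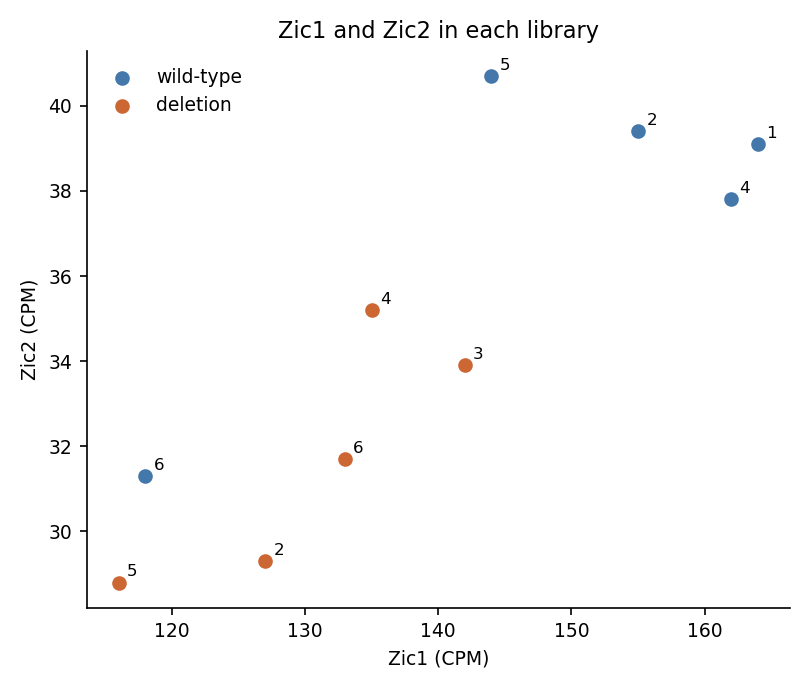
Zic1 (x axis) against Zic2 (y axis), both in CPM, with a point for each of the 10 libraries, marked with its number; axes do not start at 0. Libraries high in one are high in the other (r = 0.86 on the log2 scale), and wild-type 6 lies among the deletion libraries.

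Other Zic genes were also compared. Zic4, which lies head to head with Zic1, stood at 50.3, 45.1, 45.1, 35.3 and 34.0 CPM in the wild-type libraries and at 30.1, 37.4, 35.7, 30.2 and 40.6 CPM in the deletion libraries. Its log2 fold change of -0.27 (SE 0.11) did not pass in edgeR (adjusted p = 0.380). None of the 5 deletion values reached the wild-type mean of 42.0 CPM, as for Zic1. Genes of other lists, such as Dmbx1 and Bmp5, did the same, so this is not particular to the Zic genes. Zic5, the neighbour of Zic2, gave -0.11 on the log2 scale (SE 0.14), less than its standard error. Reads of Zic1 and Zic4 that fall in the overlap of the 2 genes cannot be told apart without strand, so their values are not fully separate.

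Meis2 was the most abundant of the 8 factors. Its raw counts, which follow library depth, were 4844, 3433, 3934, 4840 and 4736 in the wild-type libraries and 3154, 4242, 4580, 4778 and 4096 in the deletion libraries. Scaled for depth, these were 211 to 253 CPM (mean 236) and 194 to 255 CPM (mean 226). The lowest and highest scaled values, in deletion 2 and deletion 5, came from the same group. Between the groups the log2 fold change was -0.07 (SE 0.07) with a 95% interval of -0.22 to 0.09, which is a range of 0.86-fold to 1.06-fold (edgeR, adjusted p = 0.821).

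Meis1 differed more between libraries than between groups. It stood at 39.1, 33.8, 32.5, 62.4 and 55.6 CPM in wild-type 1, 2, 4, 5 and 6, and at 51.2, 58.0, 35.7, 34.3 and 33.7 CPM in deletion 2, 3, 4, 5 and 6. Wild-type 5 and 6 and deletion 2 and 3 thus stood above the 6 other libraries, with a gap between 39.1 and 51.2 CPM. For Meis1 the log2 fold change was -0.07 (SE 0.24) with a wide 95% interval of -0.61 to 0.46 (edgeR, adjusted p = 0.956). Its sign turned when wild-type 5 (0.07), wild-type 6 (0.02) or deletion 6 (0.00) was left out. The SD of log2 CPM within the groups was 0.40, larger than in 99.5% of the 5053 genes whose mean level was within 2-fold of Meis1. By the same measure 96.7% of genes of similar level had a smaller SD than Pax7, 88.5% than Msx1, 84.0% than Zic1, 83.1% than Pax3, 76.8% than Meis2 and 47.3% than Zic2. All but Zic2 thus varied more than most genes of their level.

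Other genes were high in the same libraries as Meis1. Msx3, the Msx relative known for the dorsal hindbrain and spinal cord, stood at 5.28 CPM in wild-type 5, 1.68 in wild-type 6, 3.14 in deletion 2 and 2.24 in deletion 3, and at 0 to 0.625 CPM in the 6 others. Atoh1, known for the rhombic lip of the cerebellum, stood at 1.67, 0.472, 2.03 and 1.51 CPM in the same 4 libraries and at 0 to 0.442 CPM in the rest, so wild-type 6 was close to wild-type 4. The 8 hindbrain and cerebellar markers that include Atoh1 did not pass the filter on low counts, and summed to 0.260 to 2.09 CPM among wild-type libraries and 0.107 to 2.79 CPM among deletion libraries. Of the next most abundant of them, Hoxa2 reached 0.838 CPM, Egr2 0.473 CPM and Ptf1a 0.418 CPM. With the log2 level of Atoh1 as a covariate, 0 of the 7 factors passed in edgeR and 2 had an unadjusted p under 0.05. The log2 fold change was then -0.06 for Meis1, 0.00 for Pax7, -0.19 for Zic1 and -0.24 for Zic2. Atoh1 was picked because it was high where Meis1 was high, so the smaller spread left for Meis1 in that fit followed from the choice and is not given.

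**Figure D4:**
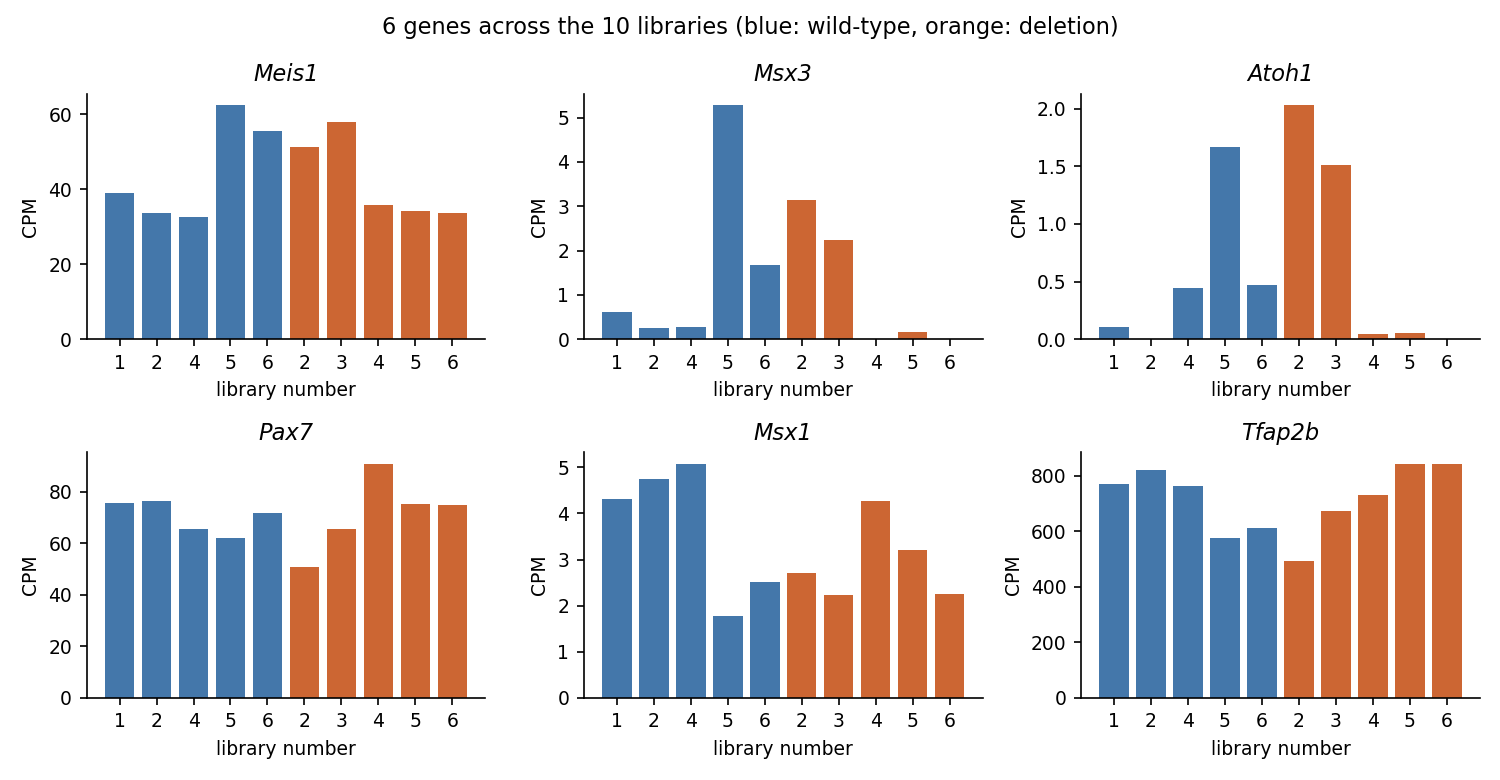
Levels in CPM (y axes, starting at 0) of 6 genes in each of the 10 libraries (x axis: library number; blue, wild-type; orange, deletion). Meis1, Msx3 and Atoh1 are highest in wild-type 5 and 6 and deletion 2 and 3, where Tfap2b, a gene of tectal neurons, is at 495 to 672 CPM against 730 to 844 CPM in the other libraries; not all tectal genes follow Tfap2b.

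Pax7, which marks the tectum, stood at 75.5, 76.3, 65.3, 61.8 and 71.8 CPM in the wild-type libraries and at 50.8, 65.6, 90.8, 75.1 and 74.6 CPM in the deletion libraries. The deletion group held both the lowest and the highest library. The log2 fold change was 0.03 (SE 0.12, 95% interval -0.22 to 0.27) and did not pass in edgeR (adjusted p = 0.968). It was -0.02 with the length trend removed and -0.07 once GC content was also included in the trend, -0.02 without wild-type 5 and -0.07 without deletion 4, so no direction can be given. The SD within groups, 0.24 on the log2 scale, was larger than in 96.7% of genes of similar level.

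Pax3 was lower than Pax7 and followed another order of libraries. It stood at 30.5, 18.3, 25.4, 28.1 and 24.4 CPM in the wild-type libraries and at 24.8, 21.8, 26.3, 24.2 and 21.3 CPM in the deletion libraries. The wild-type group spanned the whole range of the deletion group. The log2 fold change was -0.10 (SE 0.12, 95% interval -0.34 to 0.14; edgeR, adjusted p = 0.832). Pax3 and Pax7 showed no relation that passed over the 10 libraries (Pearson r = -0.07, permutation test, p = 0.839, adjusted p = 0.979; Spearman rho = -0.14, permutation test, p = 0.708, adjusted p = 0.901; r = -0.07 without wild-type 2 and wild-type 1). The ratio of Pax7 to Pax3 per length ran from 1.35 in deletion 2 to 2.76 in wild-type 2, with a mean of 1.90 ± 0.511 over wild-type and 2.00 ± 0.385 over deletion libraries (SD, n = 5 each).

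Msx1 was scarce, with 34 to 92 counts in a library. It stood at 4.32, 4.74, 5.08, 1.78 and 2.52 CPM in the wild-type libraries and at 2.71, 2.24, 4.27, 3.20 and 2.26 CPM in the deletion libraries. Within the wild-type group, wild-type 5 and 6 lay apart from the other 3. For Msx1 the log2 fold change was -0.32 (SE 0.27) with a 95% interval of -0.89 to 0.25 (edgeR, adjusted p = 0.744), so a change of up to 0.54-fold lay within the interval. Msx1 tended to be low where Meis1 was high (Pearson r = -0.74, permutation test, p = 0.0191, adjusted p = 0.200; Spearman rho = -0.70, permutation test, p = 0.0302, adjusted p = 0.317). That relation did not pass after adjustment over the 21 pairs, and r was -0.58 without wild-type 4 and 5.

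Msx2 was at the edge of detection. Its counts were 4, 0, 2, 9 and 8 in the wild-type libraries and 9, 2, 0, 0 and 0 in the deletion libraries. 3 counts, taken as the floor, stood for 0.149 to 0.185 CPM, so 4 libraries (wild-type 1, 5 and 6 and deletion 2) lay above it. Tested without the filter on low counts, Msx2 had a fitted log2 fold change of -0.90 (SE 1.07), which did not pass in edgeR (adjusted p = 0.811). With 3 deletion libraries at 0 this fitted value depends on the prior count and is no bound.

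**Figure D5:**
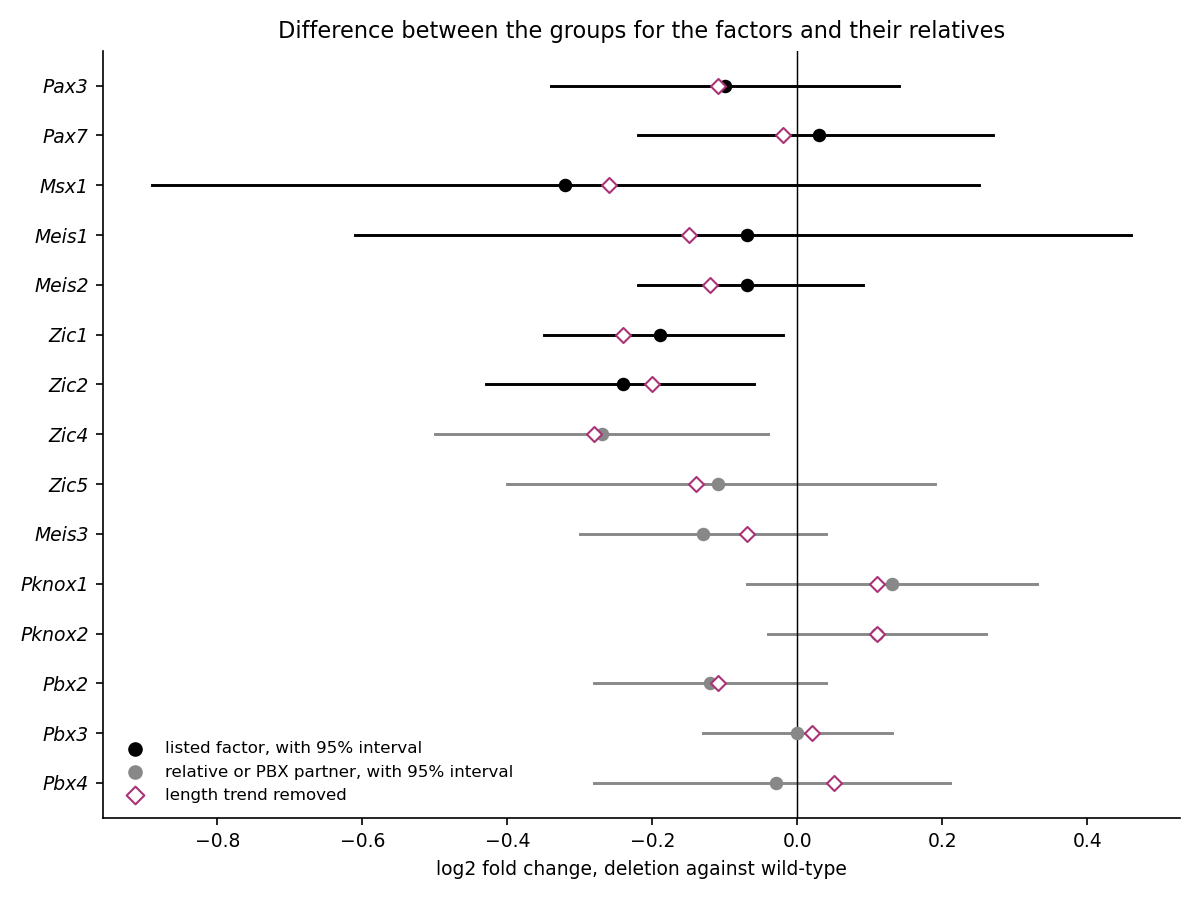
Log2 fold changes of deletion against wild-type (x axis) for the 7 tested factors (black), their relatives and the PBX partners (grey), with 95% intervals from edgeR as lines; open diamonds give the value with the trend on transcript length removed. The intervals of Zic1, Zic2 and Zic4 lie below 0 before adjustment for the number of genes, and all others cross 0; Msx3 (-0.60, SE 1.28) is left out.

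None of the partners and relatives of the MEIS proteins passed either. Pbx2 had a log2 fold change of -0.12 (SE 0.08), Pbx4 one of -0.03 (SE 0.12) and Pbx3 one of -0.00 (SE 0.06). Meis3 had one of -0.13 (SE 0.08), Pknox1 one of 0.13 (SE 0.10) and Pknox2, which like Pknox1 encodes a relative of MEIS that binds PBX, one of 0.11 (SE 0.07). For all of them the adjusted p was above the threshold in edgeR and limma-voom, and in DESeq2 where it gave one. Of the PBX genes and family relatives compared, only Zic4 had an unadjusted p under 0.05 in edgeR.

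Genes listed for the roof plate and for dorsal signals were low in this tissue. DESeq2 gives no adjusted p for many low genes, so its counts below cover those with one. Of 16 roof plate and dorsal signalling genes, 14 were tested, 6 were higher and 8 lower, and 0 passed in edgeR, DESeq2 or limma-voom (0 with an unadjusted p under 0.05 in edgeR; median log2 fold change -0.11, against -0.00 over all genes). The most abundant members of this list were Lmx1b (mean 17.0 CPM in wild-type and 20.7 in deletion libraries), Wnt3 (16.2 and 14.1), the roof plate determinant Lmx1a (14.1 and 13.3) and the ligand gene Bmp7 (10.2 and 10.3). Neither Lmx1a nor Lmx1b encodes a signal, and Lmx1b is also on the list of midbrain markers. Their levels are thus not a measure of roof plate signals. Wnt1, the ligand of the dorsal midline and isthmus, stood at 2.58 and 2.89 CPM. Of 9 genes that respond to BMP signals, 1 was higher and 8 were lower, where 50.7% of all genes tested were lower. Their median log2 fold change was -0.22, and -0.14 with the length trend removed. In edgeR, DESeq2 or limma-voom 0 passed, and 2 had an unadjusted p under 0.05 in edgeR (10.5% of all genes). Id1, a BMP target chosen after its values were seen, was the one whose deletion libraries all lay below the wild-type ones (2.49% of all genes did not overlap), at means of 13.6 and 9.88 CPM and a log2 fold change of -0.47 (SE 0.13), and did not pass in edgeR (adjusted p = 0.136). Id4 (403 and 378 CPM), Id2 (69.9 and 60.2), Id3 (26.5 and 22.3) and Smad7 (18.9 and 17.6) were the most abundant. The summed level of this list ran from 499 to 575 CPM over wild-type libraries and from 385 to 559 CPM over deletion libraries, with the lowest in deletion 4. Id4 made up most of that sum. It stood at 269 CPM in deletion 4 and at 363 to 434 CPM in the other libraries, so the lowest sum is not one of the list as a whole.

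Genes of tectal neurons split evenly: of 20 tested, 10 were higher and 10 lower. Their median was -0.00 on the log2 scale, and 0 passed in edgeR, DESeq2 or limma-voom (0 with an unadjusted p under 0.05 in edgeR). Tfap2b had means of 709 CPM (wild-type) and 717 CPM (deletion), Otx2 at 197 and 176, Barhl1 at 153 and 152, and Tal1, of GABAergic neurons, at 139 and 141. The summed level was lowest in deletion 2 (1790 CPM), deletion 3 (2051), wild-type 5 (2069) and wild-type 6 (2121), the 4 libraries with the most Meis1, and was 2265 to 2572 CPM in the others. Tfap2b made up much of that sum. Without it the other 19 genes summed to 1295 CPM in deletion 2, 1379 in deletion 3, 1493 in wild-type 5 and 1510 in wild-type 6, and wild-type 4 lay among these at 1502. Some genes of the list ran the other way: Lhx1, chosen after its values were seen, stood at 130, 125, 147 and 131 CPM in wild-type 5 and 6 and deletion 2 and 3, and at 107 to 131 CPM elsewhere. Bhlhe22, chosen likewise, stood at 26.3, 35.1, 33.1 and 27.5 CPM in them and at 20.3 to 27.6 CPM elsewhere.

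On the ventral side, 15 of 17 genes were tested, 8 were higher and 7 lower, the median was 0.00, and 0 passed in edgeR, DESeq2 or limma-voom (0 with an unadjusted p under 0.05 in edgeR). Lmo3 (232 and 221 CPM), Ntn1, the netrin of the floor plate (160 and 160), Nr4a2, of dopamine neurons (38.9 and 39.9), and Foxa1 (20.8 and 21.9) were its most abundant genes. The list summed to 454 to 606 CPM over wild-type and 495 to 608 CPM over deletion libraries.

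Markers of other cells that express these factors were compared beside them. Of 10 progenitor markers, 9 lay under 0 as Zic1 and Zic2 did (50.7% of all genes), at a median of -0.10. In edgeR, DESeq2 or limma-voom 0 passed, and 1 had an unadjusted p under 0.05 in edgeR (10.5% of all genes). Their summed level overlapped between the groups (1262 to 1670 against 1185 to 1700 CPM). Vim stood at 469 and 462 CPM, Fabp7 at 402 and 374, Nes at 169 and 152, and Slc1a3 at 144 and 147. The others were named after their values were seen. Sox2 (-0.23, SE 0.10), Hes5 (-0.23, SE 0.15) and Hes1 (-0.22, SE 0.14) had log2 fold changes of the size of Zic1 and Zic2. Sox9 (-0.00), Mki67 (-0.07) and Top2a (-0.10) had smaller ones. With the length trend removed, Sox2, Hes5 and Hes1 were at -0.17, -0.12 and -0.13, against -0.24 for Zic1 and -0.20 for Zic2. The median of the 10 markers was then -0.13. The part of progenitor content in the Zic values was not tested. Of 12 markers of meninges and mesenchyme, which also express Zic genes, 9 were tested, 4 were higher and 5 lower, and 0 passed in edgeR, DESeq2 or limma-voom (1 with an unadjusted p under 0.05 in edgeR). They summed to 30.1 to 37.6 CPM over wild-type and 31.4 to 39.8 CPM over deletion libraries, with Lum at 0 in 7 libraries. The most abundant were Pdgfra (11.3 and 13.2 CPM), the collagen genes Col3a1 (6.01 and 6.33) and Col1a2 (4.12 in wild-type, log2 fold change -0.04), and Foxc1 (5.01 and 4.67).

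Of 4 markers of neural crest and Schwann cells 2 were tested, 2 were higher, and 0 passed in edgeR, DESeq2 or limma-voom (0 with an unadjusted p under 0.05 in edgeR). They summed to 1.35 to 6.66 and 3.41 to 6.84 CPM, led by Sox10 (2.16 and 2.94), followed by Foxd3 (0.854 and 0.741) and Erbb3 (0.457 and 0.808). Of 10 neuron markers, 7 lay above 0 at a median of 0.03. In edgeR and limma-voom 0 of them passed, and 2 had an unadjusted p under 0.05 in edgeR (10.5% of all genes). In DESeq2 1 passed (3.23% of the genes with an adjusted p): the adhesion gene Ncam1, chosen after its values were seen. Ncam1 had means of 609 and 734 CPM and a DESeq2 adjusted p of 0.0170. In edgeR its log2 fold change was 0.27 (SE 0.07, adjusted p = 0.137). With the length trend removed it was 0.20 (SE 0.06, adjusted p = 0.414 in edgeR). The 10 neuron markers summed to 8908 to 9253 and 8407 to 9916 CPM, led by Tubb3 (2556 and 2424), Map2 (1766 and 1775), Dcx (1631 and 1673) and Stmn2 (1272 and 1255).

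Of 10 forebrain markers 5 were tested, 2 were higher and 3 lower, and 0 passed in edgeR, DESeq2 or limma-voom (1 with an unadjusted p under 0.05 in edgeR). Six3 (50.2 and 60.2 CPM) and Emx2 (50.5 and 43.1) were the most abundant, followed by Isl1 (5.19 and 4.57), Tbr1 (0.977 and 1.54) and Emx1 (1.31 and 1.15). Of 8 midbrain markers, 7 were tested, 3 were higher and 4 lower, and 0 passed in edgeR, DESeq2 or limma-voom (0 with an unadjusted p under 0.05 in edgeR). Besides Otx2 and Pax7, its most abundant were En2 (151 and 139 CPM), Pax5 (119 and 141) and En1 (72.4 and 64.8).

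The genes most like each factor over the libraries were found among 10315 genes with a mean of at least 10 CPM, by Pearson r of log2 CPM over 10 libraries with the group means removed. Meis1 was followed most closely by Cyp26b1, an enzyme that breaks down retinoic acid (r = 0.97), Nid1 of the basement membrane (0.97) and the ephrin gene Efnb2 (0.95). Pax3 was followed by Dbx1, a homeobox gene of progenitors (0.96), Rnf4 (0.95) and Cdc20, of mitosis (0.95). For Pax7 the closest were Hypk (0.94), Emx2, a homeobox gene of the forebrain (0.93), and Asic4 (0.93). Those most like Msx1 were Acox3 (0.95), Tab1 (0.95) and Carm1 (0.94). Meis2 had lower values, with Bud23 (0.93), Marchf8 (0.88) and Zscan12 (0.86). The closest to Zic1 were Gm20604 (0.92), Fbxw2 (0.90) and Ndufv2 (0.89), and to Zic2 Zfp286 (0.93), H2-D1 (0.91) and Pgm2 (0.90). Zic1 and Zic2, at 0.81, were not among each other's 3 closest genes. These are the highest of many values, so they describe the libraries and were not tested.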

How the data were processed

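The authors deposited 1 table of raw counts per Entrez gene ID for 10 libraries. HISAT2, featureCounts and the build mm39 are named in the submitters' processing notes (versions, annotation, strand setting and treatment of multiply mapped reads: not given in the sources used here). Columns were matched to samples by title (0 unmatched). Symbols came from RefSeq (GRCm38.p6) for 30648 of the 30935 IDs, and transcript lengths and sequences from GENCODE M21 (GRCm38).

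The test used edgeR 4.0.16 (R 4.3.3): filterByExpr, TMM, and a robust quasi-likelihood F test with group as the only term, two-sided, with Benjamini-Hochberg adjustment over all genes tested and a threshold of 0.05. The SE is the log2 fold change divided by the square root of F. Log2 CPM used a prior count of 2. Correlations used 100000 permutations of the libraries. Trends on length, with or without GC content, were splines with 4 degrees of freedom, fitted in each library over genes whose mean log2 CPM exceeded 3. DESeq2 1.42.0 and limma 3.58.1 served as alternatives. The edgeR test was tested on simulated data.

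No libraries of a group were near-duplicates (lowest chi-square per degree of freedom 5.81). Deletion 4 lay far from its group. Its pairs stood at 20.6 to 33.1, against 5.81 to 10.7 for the other deletion pairs and 6.65 to 16.9 for the wild-type pairs. Its slope on transcript length, -0.055, was the only negative one among deletion libraries. P-values measure the spread between these libraries, which no source ties to litters. The genes, lists and tests were chosen with earlier results of these data known. Genes named were the 8 factors, their relatives and PBX partners, the 4 most abundant members of each other list, and for each factor the 3 genes most like it; all other genes were named after their values were seen. Some genes of these lists are not reported here.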

Additional observations from a re-analysis of the deposited data

Results flagged for a closer look

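Msx2 in deletion 2 (0.554 CPM, 9 counts) lay far from the other deletion libraries, of which the nearest was at 0.112 CPM. It was the only such library in the 16 groups of 5 checked for the 8 factors. With the relatives and PBX partners, 3 of 34 groups were marked. For normally spread values chance marks about 1 group in 20, a rate that does not hold for counts of 9, 2, 0, 0 and 0. Counts this low carry a large counting error.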

How the results depend on the processing

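Of the 147 values of the 7 tested factors under alternatives, 138 kept their sign and side of the threshold and 9 turned sign, and 0 factors passed under any alternative. Pax3 had a log2 fold change of 0.01 with the replicate number as a block and 0.00 without the block on the same 8 libraries. Pax7 had one of -0.02 with the length trend removed, -0.07 with length and GC content removed, and -0.07 to 0.12 when single libraries were left out; Meis1 ran from -0.21 to 0.07 in the latter. The cause was not tested. The number of genes passing over the whole table, 9, was 15 with upper-quartile factors, 69 with no filter, 261 in DESeq2, 0 with the length trend removed, 18 with length and GC content removed and 23 with the Atoh1 level as a covariate (added after the data were seen). It was 0 with the replicate block and 0 without it on the same 8 libraries (941 and 1139 at an unadjusted p under 0.05), and 0 to 357 when single libraries were left out: 357 without deletion 4, 88 without wild-type 2, 3 without deletion 3 or deletion 6, 1 without wild-type 4, and 0 without any of the other 5. Deviations of libraries of the same number correlated at r = 0.17, 0.02, -0.23 and 0.38 for numbers 2, 4, 5 and 6 over 10315 genes. No source used here says that the numbers pair the samples, and so few values, without a test, cannot decide it. Depth limits Msx2 and Msx1.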

Other observations

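Further genes, picked after their values were seen, followed the order of libraries of Meis1 rather than the genotype. Tbr1, a T-box factor of the cortex and the cerebellar nuclei, stood at 3.19 CPM in wild-type 5, 2.83 in deletion 2 and 4.13 in deletion 3, and at 0 to 0.693 CPM in the other 7 libraries. Gdf10, a secreted factor of the BMP family, stood at 8.36, 6.65 and 7.77 CPM in the same 3 libraries and at 1.84 to 3.85 CPM in the others. Wild-type 6, which was high in Meis1, was not high in either gene (0.681 and 3.83 CPM). No cause of this order was tested.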
